A study of Mus musculus with 3 samples.

Results

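The genes described here are 7 genes of antigen presentation on MHC class II in the mouse: H2-Aa, H2-Ab1, H2-Eb1, Cd74, Ciita, H2-DMa and H2-DMb1. They were chosen by name for their place in the pathway, and all 7 were found among the 21750 features of 1 single-cell RNA library of sorted hippocampal cells. The library came from 5 pooled mice of the genotype Aldh1l1CreERT2;Rosa26-LSL-tdTomato, in which tamoxifen starts a Cre recombinase driven by the astrocyte gene Aldh1l1 and so turns on the red reporter tdTomato. These mice had received a Cre-dependent viral vector, AAV-TIGRi-Hopx, in the hippocampus, which carries EGFP and is labelled as a knockdown of Hopx. At 3 weeks after tamoxifen the hippocampus was dissociated, and cells positive for tdTomato and EGFP were enriched by sorting. Every cell therefore shares 1 genotype, vector and treatment. No library from mice without the vector was analysed here, so the values describe cell types and not an effect of the knockdown. The comparisons below are between cell types within this library, and the pool of mice is a single sample. No test across samples was possible, so levels are given with exact 95% Poisson intervals and ratios with exact 95% binomial intervals. These intervals cover counting error only.

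Of 6672 barcodes, 6485 held at least 500 genes and at most 15% mitochondrial counts, with a median of 5564 unique molecular identifiers (UMIs, each standing for 1 captured RNA molecule). The labels name cells of the astrocyte lineage as the sorted population, and the markers went against this for most cells. Astrocyte-like cells numbered 152 of 6485, against 2507 microglia-like, 1505 endothelial-like, 434 choroid plexus-like and 338 ependymal-like cells. Another 297 cells held markers of both astrocytes and ependymal cells and were assigned to neither type. EGFP was detected in 69 cells (1.06%) and tdTomato in 237 cells (3.65%). Hopx itself had 290 UMIs in 86 of 152 astrocyte-like cells, or 494 CPM (UMIs per 1000000 of the cells' total), and 37 UMIs in 35 of 2507 microglia-like cells. EGFP UMIs were found in 0 of 54 B-lineage cells, 0 of 241 border macrophage-like cells and 1 of 2507 microglia-like cells. The lineage reporter tdTomato was found in 3 B-lineage cells (5.56%), 5 border macrophage-like cells (2.07%), 23 microglia-like cells (0.917%) and 27 astrocyte-like cells (17.8%).

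MHC class II molecules show peptides from engulfed material to CD4 T cells. Each is a pair of chains: H2-Aa and H2-Ab1 encode the alpha and beta chain of I-A, and H2-Eb1 encodes the beta chain of I-E. Cd74 encodes the invariant chain, which holds new class II molecules in the secretory route and fills their groove until endosomal proteases remove it. H2-DMa and H2-DMb1 encode the chains of H2-DM, which then takes out the last fragment of the invariant chain and lets peptide in. Ciita encodes the transactivator that switches on the whole set and is itself the limiting step in most cells. B cells, dendritic cells and macrophages are the textbook presenting cells, plasma cells are known to silence Ciita through the repressor Prdm1 (Blimp-1), and microglia are known to hold little class II at rest and more on activation.

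Ciita works without touching DNA, through factors bound at an X box and a Y box just upstream of its target genes. The stretches of 150 bases upstream of the RefSeq transcription start (assembly GRCm38.p6) are printed here for H2-Aa, H2-Eb1 and the DM genes. Where the searched letters match, and how the matches are spaced, can be read from these stretches. They run 5′ to 3′ on the strand of the gene, with the X box and the Y box in capitals. H2-Aa lies on the minus strand, at chr17:34287824-34287973, and the other stretches on the plus strand: H2-Eb1 at chr17:34305717-34305866, H2-DMb1 at chr17:34153041-34153190, and the first of the starts listed for H2-DMa at chr17:34122682-34122831.
H2-Aa: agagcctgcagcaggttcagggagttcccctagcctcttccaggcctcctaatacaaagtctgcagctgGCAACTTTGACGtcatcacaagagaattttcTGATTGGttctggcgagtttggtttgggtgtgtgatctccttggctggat
H2-Eb1: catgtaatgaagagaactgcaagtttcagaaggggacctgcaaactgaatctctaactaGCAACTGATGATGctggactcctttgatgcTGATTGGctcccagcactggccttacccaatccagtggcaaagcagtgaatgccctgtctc
H2-DMb1: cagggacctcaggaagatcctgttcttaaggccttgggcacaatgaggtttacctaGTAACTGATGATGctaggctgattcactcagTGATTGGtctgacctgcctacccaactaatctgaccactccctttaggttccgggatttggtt
H2-DMa: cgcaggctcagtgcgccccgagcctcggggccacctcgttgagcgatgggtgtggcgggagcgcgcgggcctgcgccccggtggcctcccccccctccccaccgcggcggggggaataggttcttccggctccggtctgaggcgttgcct
The X box was searched as GNAAC, 2 or 3 bases of any kind and TGANG, and the Y box as TGATTGG, on both strands, where N is any base. H2-Aa held GCAACTTTGACG and, 19 bases on, TGATTGG. H2-Eb1 held GCAACTGATGATG with 17 bases before the Y box, and H2-DMb1 held GTAACTGATGATG with 18. Neither motif matched in the printed stretch of H2-DMa, which is 76.0% G and C, nor in that of its other listed start, which says only that these letters are not in those windows. An X box in either form was present in 294 of 32851 mouse promoter windows of this length (0.895%), a Y box in 1877 (5.71%), and both in 19 (0.0578%). A match is a description of the sequence, not a site of binding. H2-Ab1, Cd74 and Ciita are given by name only.

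Over all cells kept, the 7 genes drew 159786 UMIs. Cd74 made up 45.0% of them, H2-Eb1 18.0%, H2-Aa 16.6%, H2-Ab1 15.2%, H2-DMa 3.27% and H2-DMb1 1.91%. Ciita had 164 UMIs in 127 cells, or 0.103% of the total for the set, so its values are those of single molecules. The library counts RNA 3′ ends, 1 UMI for each captured molecule whatever its length, and levels are given below as CPM of the UMIs summed over the cells of a type. Cells were assigned to types on markers that exclude these 7 genes. A sum over a type cannot tell a change in every cell from a change in the share of cells that express the gene, so counts of cells are given beside the levels.

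Across the 3 immune types, the classical chains were highest in border macrophage-like cells and Cd74 in B-lineage cells, although Cd74 in B-lineage over border macrophage-like cells turned to 0.864 when types were taken from clusters. H2-Aa had 411 CPM in 54 B-lineage cells (95% interval 338 to 496), 1430 CPM in 241 border macrophage-like cells (1360 to 1503) and 1023 CPM in 2507 microglia-like cells (1007 to 1038). H2-Ab1 followed the same order, at 370, 1290 and 918 CPM in B-lineage, border macrophage-like and microglia-like cells. H2-Eb1 did too, at 668, 1620 and 1112 CPM. No interval of one type overlapped that of another for these 3 chains, and the share of all genes doing so was not counted. Cd74 had 4255 CPM in B-lineage cells (4010 to 4511), 2941 CPM in border macrophage-like cells (2840 to 3045) and 2923 CPM in microglia-like cells (2897 to 2949), the last pair of intervals overlapping. A UMI of Cd74 was present in 98.1% of B-lineage cells, 64.7% of border macrophage-like cells and 84.1% of microglia-like cells, and after thinning each cell to 2000 UMIs in 56.1% of border macrophage-like cells and 72.7% of microglia-like cells. For H2-Aa the shares were 20.4%, 47.3% and 63.5% in the same order, and 18.0%, 42.2% and 49.1% thinned. Border macrophage-like cells thus had the higher H2-Aa level with the smaller share of positive cells, and no order of the types is read from the shares.

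Of the peptide-loading genes, H2-DMa was ordered differently and H2-DMb1 was not. H2-DMa had 71.7 CPM in B-lineage cells, 170 CPM in border macrophage-like cells and 239 CPM in microglia-like cells, so that the microglia-like cells were highest. H2-DMb1 had 22.6 CPM in B-lineage cells, 127 CPM in border macrophage-like cells and 124 CPM in microglia-like cells, the order of the chains, with the intervals of the last pair overlapping. Ciita had 2 UMIs in B-lineage cells (7.55 CPM), 17 in border macrophage-like cells (15.6 CPM) and 93 in microglia-like cells (5.49 CPM). The sum of the 7 genes was 5806 CPM in B-lineage cells, 7594 CPM in border macrophage-like cells and 6345 CPM in microglia-like cells. That sum hides that B-lineage cells were lowest for the chains and, as gated, highest for Cd74. Its own order depended on how cells were assigned and weighed: border macrophage-like over microglia-like cells was 1.20 as gated and 0.981 when each cell had to hold 1 marker more.

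Each gene was set against every other measured gene by the same rule, a ratio of at least 2 in either direction with its interval on that side of 1 and at least 10 UMIs in both types together. For B-lineage over microglia-like cells, 0 of 7 members passed as higher, where 12.7% of 12216 genes did, and 4 of 7 passed as lower, where 14.8% did. Those lower were H2-Aa (ratio 0.402, 95% interval 0.330 to 0.485), H2-Ab1 (0.403), H2-DMa (0.30) and H2-DMb1 (0.182). H2-Eb1 was at 0.601 (0.515 to 0.696) and Cd74 at 1.46 (1.37 to 1.54), neither reaching 2-fold. For border macrophage-like over microglia-like cells, 1 of 7 members passed as higher (10.8% of 12327 genes) and 0 as lower (7.12%). The one was Ciita, at 2.85 (1.59 to 4.81). The classical chains stood at 1.40 to 1.46 times, Cd74 at 1.01 and H2-DMa at 0.711 (0.610 to 0.824). For B-lineage over border macrophage-like cells, 0 members passed as higher (13.1% of 9111 genes) and 5 as lower (20.9%), which were the 3 classical chains and the DM genes, at 0.178 to 0.422. In each of 8 other ways of filtering, gating, weighing or thinning the cells, the 3 classical chains stayed above 1 in border macrophage-like over microglia-like cells, with a lowest value of 1.12. H2-DMa stayed under 1 there, with a highest value of 0.840. In B-lineage over microglia-like cells, H2-Aa stayed between 0.301 and 0.529 and Cd74 between 1.33 and 1.52 in the same 8.

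The B-lineage gate held cells at opposite ends of the class II range. By which markers had more UMIs, 49 of the 54 cells were plasma cell-like and 5 were B cell-like. These markers made the division, so their values describe it and support nothing. Jchain, the joining chain of secreted antibodies, had 10070 UMIs over all 49 plasma cell-like cells, 4 UMIs over the 5 B cell-like cells, and nearly all the plasma marker UMIs. Prdm1 had 125 UMIs in 34 plasma cell-like cells and 0 in B cell-like cells, and Mzb1 was in 10 of 49 plasma cell-like cells. B cell markers were not absent from the plasma cell-like cells. Cd79a, a signalling chain of the B cell receptor, had 1231 CPM in plasma cell-like cells, in 45 of 49, and 693 CPM in B cell-like cells. Ly6d was in 40 and Ms4a1 in 15 of the 49, and Vpreb3, a gene of early B-lineage stages, had 308 CPM in plasma cell-like cells and 122 CPM in B cell-like cells. Ebf1, a B cell transcription factor, had 33 UMIs in 17 plasma cell-like cells and 25 UMIs in all 5 B cell-like cells, and Pax5 had 0 UMIs in plasma cell-like cells and 1 in B cell-like cells.

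H2-Aa was almost undetected in the plasma cell-like cells while Cd74 was not. H2-Aa had 8 UMIs in 6 of 49 plasma cell-like cells, or 33.3 CPM (14.4 to 65.5), against 101 UMIs in 5 of 5 B cell-like cells, or 4116 CPM (3353 to 5002). The single B cell-like cells held 37, 12, 22, 18 and 12 H2-Aa UMIs, and no plasma cell-like cell held more than 2. H2-Ab1 had 183 CPM in plasma cell-like cells, from 44 UMIs in 27 cells, and 2201 CPM in B cell-like cells, whose 5 cells held 20, 6, 15, 6 and 7 UMIs. H2-Eb1 had 179 CPM in plasma cell-like cells and 5461 CPM in B cell-like cells, where the 5 cells held 42, 22, 23, 26 and 21 UMIs against at most 5 in any plasma cell-like cell. Cd74 had 3708 CPM in plasma cell-like cells (3469 to 3960), with a median of 12 and up to 59 UMIs per cell in 48 of 49 cells, against 9618 CPM in B cell-like cells, with 78, 50, 55, 33 and 20 UMIs per cell. Per-cell counts of Cd74 therefore overlapped between the stages, and those of H2-Aa, H2-Ab1 and H2-Eb1 did not. For H2-Ab1 the margin was narrow, at most 5 UMIs in a plasma cell-like cell and at least 6 in a B cell-like cell. The share of all genes without overlap in this division was not counted. With only 5 B cell-like cells, the lack of overlap is not read as particular to these genes.

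As ratios of plasma cell-like over B cell-like levels, H2-Aa was at 0.00808, H2-Eb1 at 0.0327, H2-Ab1 at 0.0831, H2-DMa at 0.113 and Cd74 at 0.386 (0.334 to 0.447). Ciita had 0 UMIs in 49 plasma cell-like cells, which allows up to 12.5 CPM at 3 UMIs, and 1 UMI in each of 2 of the 5 B cell-like cells. The 3 chains also differed among themselves in plasma cell-like cells, where H2-Aa had 8 UMIs against 44 for its partner H2-Ab1, while in B cell-like cells H2-Aa had 101 against 54. Cd74 UMIs per UMI of the 3 classical chains came to 9.39 in plasma cell-like cells, 0.817 in B cell-like cells, 0.678 in border macrophage-like cells and 0.958 in microglia-like cells. Cd74 was 89.4% of the UMIs of the 7 genes in plasma cell-like cells and 43.6% in B cell-like cells.

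Free RNA was read from C1qa, a complement gene of microglia and macrophages. C1qa had 63 UMIs in 21 plasma cell-like cells, 37 of them in 1 cell. Without doublet calls and cells of 3 or more C1qa UMIs, 47 plasma cell-like cells were left with 7 H2-Aa, 39 H2-Ab1 and 832 Cd74 UMIs, and Cd74 stayed at 3689 CPM. In endothelial-like cells treated the same way, Cd74 had 40.7 CPM, H2-Aa 14.9 CPM and H2-Ab1 12.9 CPM. C1qa was at 102 CPM in those 47 plasma cell-like cells and 68.8 CPM in those endothelial-like cells, a difference not corrected for. A UMI of H2-Aa was present in 10.6% of those 47 plasma cell-like cells and in 4.75% of those 1452 endothelial-like cells. One of H2-Ab1 was present in 53.2% of the same plasma cell-like and 3.58% of the same endothelial-like cells. The median depth was 5023 UMIs over all 49 plasma cell-like cells and 3519 UMIs over all endothelial-like cells. The interval of the H2-Aa level in plasma cell-like cells reached down to this background, and their H2-Ab1 and Cd74 levels lay above it.

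Against microglia-like cells, the plasma cell-like cells had 0 members higher (12.6% of 12206 genes) and 5 lower (15%), with H2-Aa at 0.0325, H2-Ab1 at 0.199, H2-Eb1 at 0.161 and Cd74 at 1.27 (1.19 to 1.36). The 5 B cell-like cells stood above microglia-like cells in every classical chain, at 4.03 for H2-Aa, 2.40 for H2-Ab1 and 4.91 for H2-Eb1, and in Cd74 at 3.29. Set against border macrophage-like cells they were at 2.88, 1.71, 3.37 and 3.27 for the same 4 genes. Over microglia-like cells H2-DMa was at 1.53 (0.70 to 2.91) and H2-DMb1 at 1.64 (0.53 to 3.84). Both DM intervals included 1 there and also over border macrophage-like cells. The share of all genes higher in the 5 B cell-like cells was not counted. Of the 109 H2-Aa UMIs of the B-lineage gate, 101 came from the 5 B cell-like cells. For the classical chains, the order of B-lineage and macrophage cells turned round once the plasma cell-like cells were set apart. Those 5 cells held 541 UMIs of the 7 genes in all, and their levels rest on that number.

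**Figure D1:**
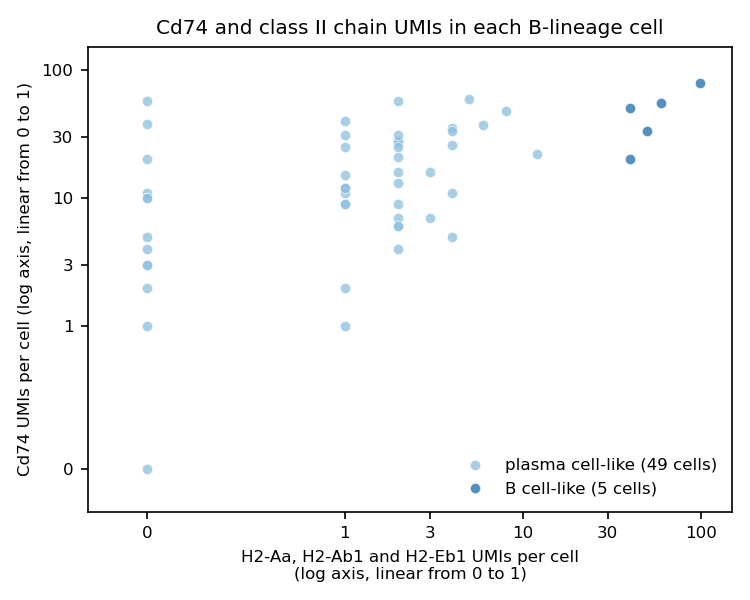
Cd74 UMIs per cell against H2-Aa, H2-Ab1 and H2-Eb1 UMIs together per cell, in 49 plasma cell-like and 5 B cell-like cells, each point 1 cell, on log axes that are linear from 0 to 1. The plasma cell-like cells lie between 0 and 12 UMIs of the chains, with 13 cells at 0, and the B cell-like cells between 40 and 99, whereas Cd74 reaches 59 in plasma cell-like cells and spans 20 to 78 in B cell-like cells.

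**Figure D2:**
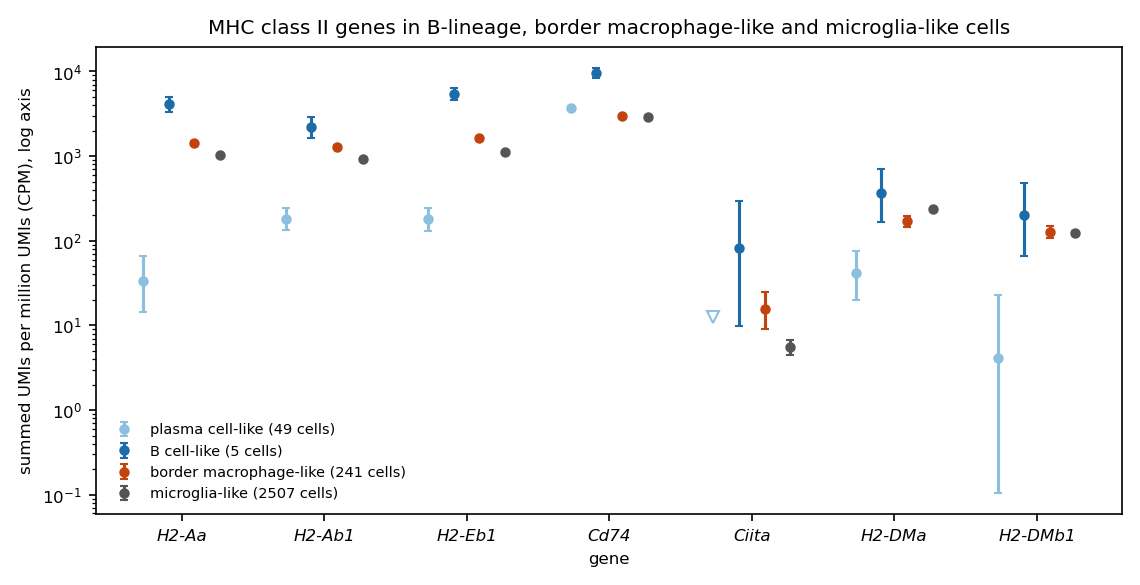
Levels of the 7 genes in plasma cell-like, B cell-like, border macrophage-like and microglia-like cells, as CPM of summed UMIs on a log axis. Points are levels and bars exact 95% Poisson intervals, which cover counting error only, and the open triangle marks 3 UMIs where Ciita had 0. For H2-Aa the plasma cell-like cells lie lowest, at 33.3 CPM against 4116, 1430 and 1023 CPM in the other 3 types, while their Cd74 lies at 3708 CPM, above the macrophage and microglial levels.

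Border macrophages live in the meninges, around vessels and in the choroid plexus, and a known division among them runs between Lyve1-positive cells, with the scavenger receptor Cd163 and the folate receptor Folr2, and cells lacking these with high class II. The border macrophage-like cells were divided here by whether a cell held any UMI of Lyve1, Cd163 or Folr2, which uses none of the 7 genes. The 41 cells without them had a median of 4974 UMIs and the 200 cells with at least 1 of them a median of 4412. All 7 members passed as higher in the cells without these markers, where 4.48% of 8534 genes did, and 0 as lower, where 5.84% did.

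H2-Aa had 3970 CPM in the cells without these markers and 878 CPM in the cells with them, a ratio of 4.52 (4.09 to 5.00). It was detected in 35 of 41 cells without and 79 of 200 cells with the markers, or 85.4% and 39.5%. Thinned to 2000 UMIs in every cell, the shares were 84.6% without and 33.5% with the markers. H2-Ab1 and H2-Eb1 stood at ratios of 4.72 and 4.69, and Cd74 had 7976 CPM without and 1846 CPM with the markers, a ratio of 4.32. The DM genes differed less, at 2.32 (1.68 to 3.17) for H2-DMa and 2.15 for H2-DMb1. Ciita had 36.0 CPM without and 11.2 CPM with the markers, from 7 and 10 UMIs, a ratio of 3.22 (1.04 to 9.36). The median cell without the markers held 29 UMIs of the 3 classical chains, and the median cell with them held 0, with 101 of those 200 cells at 0.

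Markers moved with this division. The 10 border macrophage markers, 3 of which made it, summed to 3060 CPM in the cells without Lyve1, Cd163 and Folr2, with 7 detected, and 13766 CPM in those with them, with all 10 detected. The 10 markers of recruited monocytes and macrophages summed to 725 CPM in the cells without Lyve1, Cd163 and Folr2 and 16.8 CPM in those with them. In each group 5 of the 10 were detected, but not the same 5. Ly6c2 and Chil3 were detected only in the cells without, and Plac8 and Saa3 only in those with. Vcan, Hp and Ccr2, the receptor that defines recruited monocytes, were absent from both groups. Dendritic cell markers summed to 144 CPM without and 269 CPM with the division markers, with 3 of 12 and 7 of 12 detected. Those detected in the cells without were Clec9a, Fscn1 and Wdfy4, all also detected in the cells with. Flt3 and Zbtb46 were at 0 only in the cells without, and Xcr1 was at 0 in both groups. Microglia markers were at 622 and 627 CPM without and with. The part of recruited or dendritic cells in the difference was not tested. Clustered without the 7 genes and their pathway, 31 of the 41 cells without the markers fell into 1 sub-cluster, led by Plbd1, Ccl8 and Clec12a, against 25 of the 200 with them. That sub-cluster held 129 cells, 56 of them border macrophage-like and the rest of other myeloid gates or a pair of them, and had 3439 CPM of H2-Aa and 38.0 CPM of Ciita, while the sub-cluster led by Lyve1 and Cd163, of 208 cells, had 698 and 4.25 CPM.

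Class II RNA was concentrated in few macrophages. H2-Aa was at 0 in 127 of 241 border macrophage-like cells, and the 24 cells richest in classical chains and Cd74 held 59.8% of those UMIs. Among microglia-like cells, the top 251 of 2507 held 49.2%, and 277 (11.1%) had none. Myeloid cells outside these gates were richer. The 111 cells that passed a pair of myeloid gates, and were left out of either type, had 16464 CPM of the 7 genes, and 13 recruited-type macrophage-like cells had 22380 CPM, with H2-Aa in 13 of 13.

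**Figure D3:**
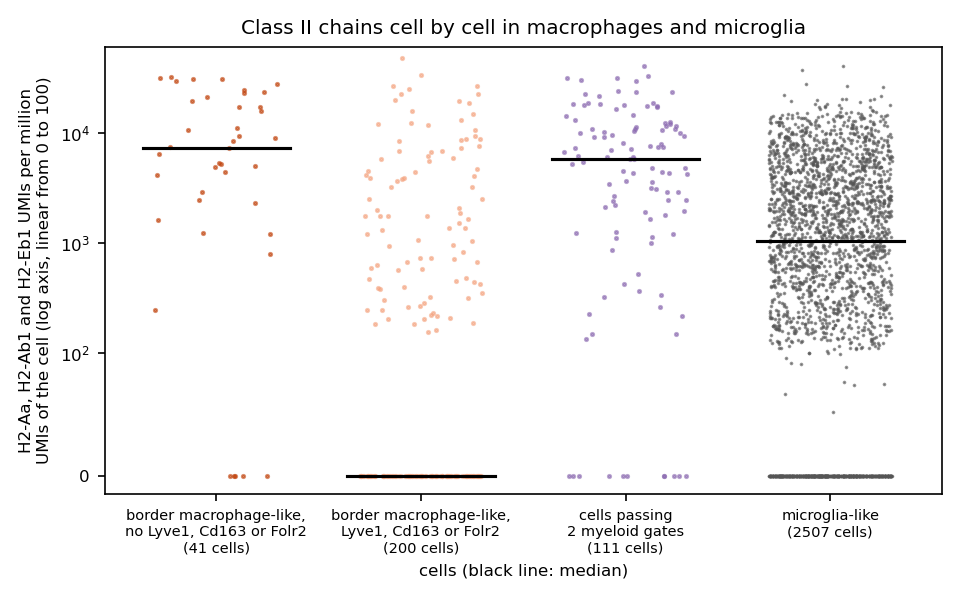
CPM of H2-Aa, H2-Ab1 and H2-Eb1 together in single cells, each point 1 cell, for border macrophage-like cells without and with Lyve1, Cd163 or Folr2, cells passing 2 myeloid gates, and microglia-like cells. The axis is logarithmic above 100 CPM and linear below, and black lines mark medians, at 7243, 0, 5756 and 1034 CPM in these 4 sets.

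Among microglia-like cells the classical chains and Cd74 varied much more than the DM genes. Over the 9 microglial sub-clusters of at least 50 cells, H2-Aa was highest at 2036 CPM in a sub-cluster of 271 cells led by Spp1, Lpl and Gpnmb, genes known from lipid-handling, disease-associated microglia. It was lowest at 142 CPM (124 to 162) in one of 339 cells led by Il7r, Sox4 and Slc2a5. One of 168 cells led by Chst8 and Ints6 was nearly as low, at 167 CPM (143 to 195), and these intervals overlapped. The ratio of the highest over the lowest was 14.4 (12.6 to 16.5) for H2-Aa, 10.8 for H2-Eb1, 9.22 for H2-Ab1 and 9.38 for Cd74, all 4 between the same 2 sub-clusters. For H2-DMa it was 1.53 (1.33 to 1.77) and for H2-DMb1 1.49 (1.26 to 1.77). DM UMIs per 100 UMIs of the classical chains were therefore 6.87 in the sub-cluster led by Spp1 and 54.8 in that led by Il7r. They were 52.1 in that led by Chst8.

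A sub-cluster of 216 cells, led by the interferon-response genes Cxcl11, Cmpk2 and Ifit1, had 1025 CPM of H2-Aa and 10.1 CPM of Ciita, and one of 324 cells, led by the chemokines Cxcl13 and Cxcl9, had 1187 CPM of H2-Aa and 5.87 CPM of Ciita. Their H2-Aa lay below that of the sub-cluster led by Spp1, whose Ciita was 9.28 CPM from 23 UMIs. Depth and C1qa moved with these levels: median UMIs per cell were 9077 in the sub-cluster led by Spp1 and 4579 in that led by Il7r, and C1qa was 15417 and 8908 CPM. The part of depth in these levels was not tested.

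**Figure D4:**
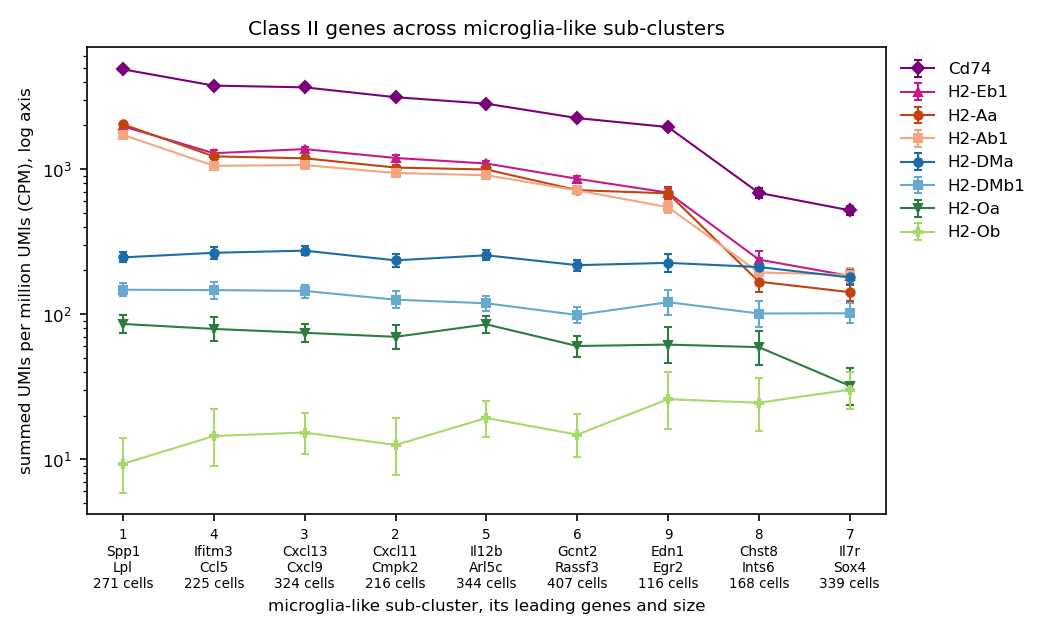
Levels of the members other than Ciita, and of H2-Oa and H2-Ob, in 9 microglial sub-clusters, as CPM on a log axis with exact 95% Poisson intervals. The sub-clusters run from the highest to the lowest H2-Aa level and carry their first leading genes and size. H2-Aa spans 142 to 2036 CPM while H2-DMa spans 179 to 274 CPM, and lines join points of 1 gene only to guide the eye.

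Cell by cell, the classical chains and Cd74 moved together. After thinning each cell to 2000 UMIs, Spearman's rho over 2421 microglia-like cells was 0.685 between H2-Aa and H2-Ab1 and 0.759 between H2-Aa and Cd74, against 0.145 with H2-DMa and 0.149 with H2-DMb1, values too weak to read in counts this sparse. Over 230 border macrophage-like cells it was 0.902 between H2-Aa and H2-Ab1 and 0.868 between H2-Aa and Cd74. There the rho of H2-Aa was 0.479 with H2-DMa and 0.329 with H2-DMb1, higher than in microglia-like cells. These are descriptions over cells of 1 library that share depth and free RNA. C1qa had a rho of 0.361 with H2-Aa over the same microglia-like cells.

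Microglia-like cells in which a Ciita UMI was caught held more of each other member, but a member picked these cells. The share of all genes higher in them was not counted. The 74 microglia-like cells with a Ciita UMI had 2739 CPM of H2-Aa, against 958 CPM in the 2433 without one. For Cd74 the levels were 6626 CPM with and 2784 CPM without a Ciita UMI. The ratio was 2.86 for H2-Aa and 2.38 for Cd74 but 1.59 for H2-DMa. The cells with Ciita were deeper, at a median of 8330 UMIs against 6383, and its part was not tested. Among border macrophage-like cells, the 10 with a Ciita UMI stood at 3.46 times the 231 without for H2-Aa and 3.23 times for Cd74, while H2-DMa was at 1.74 with an interval that includes 1 (0.975 to 2.92). Among the 111 cells passing a pair of myeloid gates the ratios were smaller, at 1.40 to 1.58 for the 6 genes, with median depths of 12653 UMIs in cells with a Ciita UMI and 7723 UMIs in cells without.

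Of the 5 other class II genes of the region, 3 had enough UMIs to compare border macrophage-like with microglia-like cells, and 2 of these, H2-Oa and H2-Ob, passed as lower, where 7.12% of all genes did. H2-Oa and H2-Ob encode the chains of H2-O, which is known to hold H2-DM back, chiefly in B cells. H2-Oa had 0 UMIs in 241 border macrophage-like cells, against 1174 UMIs in 800 of 2507 microglia-like cells (69.3 CPM), so the border macrophage-like level was at least 25.1-fold lower with 3 UMIs over the group as its floor. H2-Ob, outside the naming rule and picked once its values were known, had 2 UMIs in border macrophage-like cells (1.84 CPM) and 291 UMIs in microglia-like cells (17.2 CPM). In the B-lineage, H2-Oa had 0 UMIs in plasma cell-like cells and 1, 2, 2, 1 and 1 UMIs in the 5 B cell-like cells. Between the microglial sub-clusters led by Spp1 and by Il7r, H2-Oa and H2-Ob ran opposite ways. H2-Oa had 85.6 CPM in the sub-cluster led by Spp1 and 32.1 CPM in that led by Il7r, and H2-Ob had 9.28 CPM and 30.2 CPM. The others did not all follow: the sub-cluster led by Il12b had 85.0 CPM of H2-Oa and 19.2 CPM of H2-Ob.
The H2-Ob stretch at chr17:34238755-34238904 on the plus strand (GRCm38.p6) is shown because, unlike that of H2-Oa, where only a Y box matched, it holds an X box (GCAACAAATGATG) and a Y box with 15 bases between.
H2-Ob: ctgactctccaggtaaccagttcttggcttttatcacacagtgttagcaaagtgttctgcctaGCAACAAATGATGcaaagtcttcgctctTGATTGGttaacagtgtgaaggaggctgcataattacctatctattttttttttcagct
H2-DMb2, a near copy of H2-DMb1 that the counting could confuse with it, had 7 UMIs in 4 B cell-like cells, 0 in plasma cell-like cells, 3 in border macrophage-like cells and 78 in microglia-like cells, and passed in neither direction between the last pair. H2-DMb1 and H2-DMb2 values are uncertain to that extent, and H2-DMb2 and H2-Ea are likewise outside that rule. H2-Eb2 had 11 UMIs in B-lineage cells, 0 in border macrophage-like cells and 3 in microglia-like cells, and H2-Ea, which pairs with H2-Eb1 to make I-E, had 1 UMI in the B-lineage cells.

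The rest of the pathway was read from 53 genes listed by role. For border macrophage-like over microglia-like cells, 47 had enough UMIs, of which 3 passed as higher and 13 as lower, where 10.8% and 7.12% of all genes did, and their median log2 ratio was -0.44 against 0.11 over all genes. Endosomal processing, the proteases that trim antigen and the invariant chain together with their inhibitors, had 0 higher and 5 lower of 9. Ctss, encoding cathepsin S, the protease known for the last cut of the invariant chain, had 2179 CPM in border macrophage-like cells and 9324 CPM in microglia-like cells (ratio 0.234). Cst3, encoding the inhibitor cystatin C, had 4493 CPM in border macrophage-like cells and 14990 CPM in microglia-like cells, and Cst7 stood at a ratio of 0.0199. Among transcription factors Irf4 alone passed, higher at a ratio of 4.75 (2.91 to 7.51), and Il10, which is known to reduce surface class II, was higher at 4.2. The receptors that bind class II on other cells went opposite ways: Cd4 had 63 UMIs in border macrophage-like cells and 8 in microglia-like cells, and Lag3 had 18.4 CPM in border macrophage-like cells and 614 CPM in microglia-like cells.

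For B-lineage over microglia-like cells, 47 of the 53 were measured, with 11 higher and 25 lower, where 12.7% and 14.8% of all genes were. All 9 genes of endosomal processing passed as lower, with a median log2 ratio of -3.46 against 0.13 over all genes. Ctsb, encoding cathepsin B, had 215 CPM in B-lineage cells and 3395 CPM in microglia-like cells. Ubiquitin turnover and surface display had 0 higher and 4 lower of 5, and Marchf1, a ligase known to remove class II from the surface, had 1 UMI in B-lineage cells (3.77 CPM) and 2372 UMIs in microglia-like cells (140 CPM). Transcription was split, 4 higher and 4 lower of 12. Irf4, which plasma cells need, had 294 CPM in B-lineage cells and 4.84 CPM in microglia-like cells, a ratio of 60.8. Of the interferon gamma input, 2 passed as higher and 3 as lower of 7, and the receptor chain Ifngr1 had 18.9 CPM in B-lineage cells and 427 CPM in microglia-like cells. Co-stimulation had 2 higher and 2 lower of 6, with Pdcd1lg2, a ligand of the brake PD-1, at a ratio of 15.

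For B-lineage over border macrophage-like cells, 44 genes were measured, 10 higher and 21 lower, where 13.1% and 20.9% of all genes were, and their median log2 ratio was -0.93 against -0.19 over all genes. Endosomal processing had 0 higher and 8 lower of 8, while Cd274, encoding the PD-1 ligand PD-L1, had 539 CPM in B-lineage cells and 43.2 CPM in border macrophage-like cells. The co-stimulator Cd86 had 166 CPM in B-lineage cells and 1660 CPM in border macrophage-like cells. Within the border macrophage-like cells, those without Lyve1, Cd163 and Folr2 had 6 of 41 pathway genes higher and 3 lower, where 4.48% and 5.84% of all genes were. The 3 measured partners of Cd74 were all higher. Its ligand Mif had 149 CPM without and 68.3 CPM with the markers, Cxcr4 had 180 CPM without and 38.1 CPM with them, and Cd44 had 30 UMIs in 41 cells without and 1 UMI in 200 cells with them. Ctss had 4597 CPM without and 1653 CPM with the markers. Cd274 stood at a ratio of 6.77.

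Over the 10 cell types of at least 20 cells, the genes whose log2(CPM + 1) profile was most like the mean of the 7 members included Cybb, Unc93b1, Irf5 and Ifi30. Pearson's r across these 10 types was 0.982 for Cybb, which encodes a subunit of the phagocyte oxidase, and 0.967 for Unc93b1, an escort of endosomal Toll-like receptors. It was 0.963 for Irf5 and 0.956 for Ifi30, a thiol reductase of antigen processing. All 10 points come from 1 library, and 9196 genes were ranked. Cybb had 275 CPM in B-lineage cells, 710 CPM in border macrophage-like cells and 351 CPM in microglia-like cells.

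Outside the immune types the members were low. H2-Aa had 102 CPM in 1505 endothelial-like cells, 43.1 CPM in 434 choroid plexus-like cells, 28.9 CPM in 152 astrocyte-like cells, 14.7 CPM in 338 ependymal-like cells, 12.6 CPM in 87 oligodendrocyte-like cells and 0 UMIs in 29 neuron-like cells. The interval of the endothelial-like cells lay above that of the choroid plexus-like cells, and from there down each interval overlapped the next. In endothelial-like cells the richest 15 cells held 84.2% of the UMIs of the classical chains and Cd74, and in choroid plexus-like cells the richest 4 held 86.3%. The richest 1% of cells held less in ependymal-like (38.3%) and oligodendrocyte-like cells (14.9%). Without doublet calls and without cells of 3 or more C1qa UMIs, H2-Aa was at 14.9 CPM in endothelial-like cells and 4.93 CPM in choroid plexus-like cells. The 25 T or NK cell-like cells had 9 H2-Aa UMIs, all in 1 cell. The 297 cells with both astrocyte and ependymal markers are not among the astrocyte-like cells. Astrocyte-like cells, the labelled lineage, had 17 H2-Aa UMIs in 12 of 152 cells, 29 Cd74 UMIs in 11 cells and 0 Ciita UMIs, and their Cd74 level was 49.4 CPM. EGFP was found in 2 of them, of 11364 median UMIs, and those 2 cells held 49 of the 93 UMIs of the 7 genes and 20 of the 29 Cd74 UMIs. The 7 genes summed to 2156 CPM in the 2 cells with EGFP and 77.9 CPM in the 150 without, and 2 cells carry no comparison.

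Choroid plexus-like cells, the secretory epithelium that makes cerebrospinal fluid, had more H2-DMb1 per UMI than the 5.45 CPM of endothelial-like and the 5.78 CPM of ependymal-like cells. H2-DMb1 had 123 UMIs in 104 of 434 choroid plexus-like cells (24.0%; 5.42% after thinning to 2000 UMIs, at a median depth of 9831 UMIs), or 27.9 CPM (23.2 to 33.3), while its partner H2-DMa had 16 UMIs in 13 cells, or 3.63 CPM. In microglia-like cells H2-DMa was the more abundant of the pair, at 239 CPM against 124 CPM. The H2-DMb1 UMIs were spread over many cells, with 9.76% of them in the richest 1% of cells. Without doublet calls and cells of 3 or more C1qa UMIs, H2-DMb1 stayed at 26.1 CPM, with 111 UMIs in 98 of 424 cells, against 1.92 CPM in endothelial-like cells treated the same way. The other members named here lay between 2.35 CPM for H2-DMa and 9.63 CPM for Cd74 in those choroid plexus-like cells. Ependymal-like cells, which line the ventricles, had H2-Ab1 at 34.7 CPM in 40 of 338 cells and H2-Aa at 14.7 CPM in 17. With the same cells left out, H2-Ab1 was at 31.1 CPM and H2-Aa at 14.2 CPM in ependymal-like cells.

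**Figure D5:**
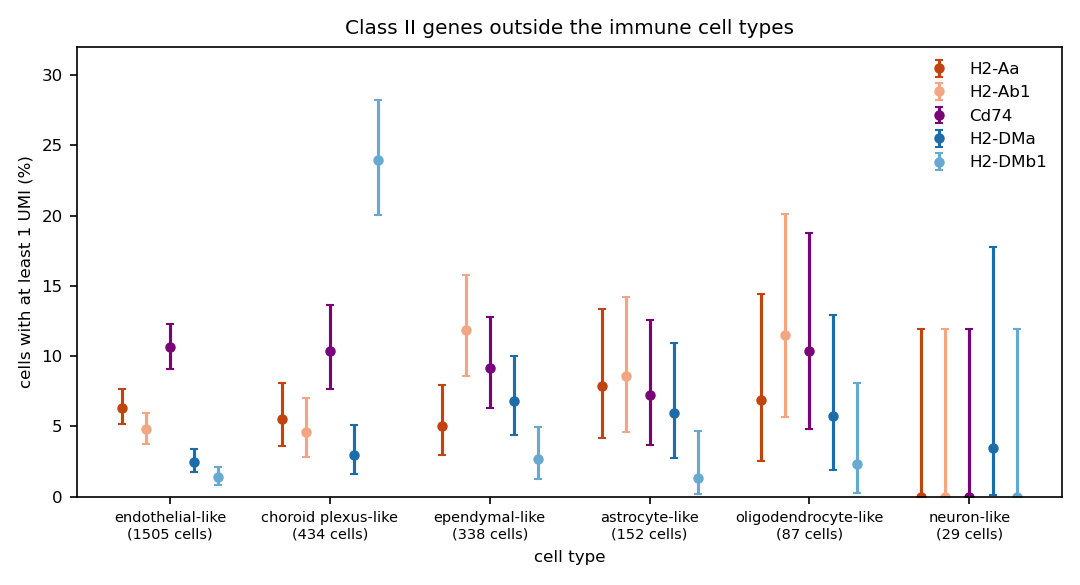
Share of cells with at least 1 UMI of H2-Aa, H2-Ab1, Cd74, H2-DMa and H2-DMb1 in 6 types outside the immune gates, in percent, with exact 95% Clopper-Pearson intervals. H2-DMb1 stands at 24.0% of choroid plexus-like cells, where H2-DMa is at 3.00%. Depth differs between the types, and thinned to 2000 UMIs the H2-DMb1 share of choroid plexus-like cells is 5.42%. The thinned H2-DMb1 share is 0.460% of endothelial-like and 1.01% of ependymal-like cells. For another gene, Cd74, it is 6.83% of endothelial-like cells.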

How the data were processed

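Deposited values are UMI counts, a whole number per gene and barcode. The submitters' processing notes name Cell Ranger 8.0.1 and the build GRCm39. An annotation release was not given in the sources used here. Both chromatin samples of primary astrocytes were not analysed here. Cells with at least 500 genes and at most 15% mitochondrial UMIs were kept, 6485 of 6672, with 41760631 UMIs. A cell went to the type with the largest share of its markers detected, at least 3; a second type with at least 3 and over 0.5 of that share put it in a pair of gates (772 cells, and another 111 with both gates myeloid). Markers matched 152 of 156 names and pathway genes 53 of 53. Scrublet, expecting 5% doublets, called 261 cells. Sub-clusters were Leiden clusters of myeloid cells without members and pathway genes. CPM came from summed UMIs; thinning used 2000 UMIs. Fold thresholds and intervals were tested on simulated data. Named pathway genes were at least 2-fold apart with 20 CPM in a type, at most 8 per comparison; likeness was ranked among genes of at least 50 CPM in a type.

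The members, markers and lists were chosen with earlier results of these data known. The gate scoring, the plasma cell and border macrophage divisions, the C1qa limit, the sub-cluster minimum of 50 cells and the motif letters were set after seeing the data. Tools were Python 3.11.15, scanpy 1.11.5, igraph 0.11.9, numpy 2.4.6, scipy 1.17.1, pandas 2.3.3 and matplotlib 3.10.9. Promoter sequences are from RefSeq on GRCm38.p6, another build than that of the counts. Some genes that met the naming rules are not reported here.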

Additional observations from a re-analysis of the deposited data

How the results depend on the processing

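No paired analysis was possible because there is 1 library and no result comes from a test. The summed level of the 7 genes moved under most settings: with 1 marker fewer it was 6576 CPM in border macrophage-like and 6261 CPM in microglia-like cells; with 1 marker more, 6104 and 6222 CPM; with cells taken from named clusters (84, 394 and 2229 cells), 4811, 10252.4 and 5560 CPM in B-lineage, border macrophage-like and microglia-like cells. With cells weighed equally it was 5499, 7262 and 5577 CPM in that order, and without the richest 1% of cells 5266, 6732 and 5883 CPM. Thinning to 2000 UMIs gave 7393 CPM in border macrophage-like and 5680 CPM in microglia-like cells. The B-lineage sum was 4149 CPM in plasma cell-like cells alone and 22048.3 CPM in B cell-like cells alone, a division chosen after seeing the data. The summed ratio of border macrophage-like over microglia-like cells was 1.05 with 1 marker fewer, 0.981 with 1 more, 1.84 from clusters, 1.30 with equal weights, 1.14 without the richest cells and 1.30 thinned. B-lineage over microglia-like was 0.865 from clusters, 0.986 with equal weights and 1.02 thinned, and B-lineage over border macrophage-like 0.848 with 1 marker fewer, 0.959 with 1 more and 0.469 from clusters. Cd74 in B-lineage over border macrophage-like cells reversed from clusters, to 0.864, and the cause was not tested. The share of cells with Cd74 was 100% of B-lineage cells under the stricter filter, and 74.4% of border macrophage-like and 80.4% of microglia-like cells from clusters. At 50 UMIs, 667 genes passed as higher in B-lineage over border macrophage-like cells, against 1191 at 10. Of the main values, 39 moved by less than their interval, 31 by more and 2 reversed. The summed ratio of border macrophage-like over microglia-like cells crossed 1 with 1 marker more. That of B-lineage over microglia-like cells, 0.915 as gated, crossed 1 when thinned. Of the values for single genes, 203 moved by less than their interval, 54 by more and 1 reversed. Depth limits Ciita, at 2 UMIs in B-lineage cells and 17 in border macrophage-like cells.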

Other observations

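Myeloid and lymphoid sets too small for the comparisons also held class II RNA. The 3 dendritic cell-like cells had 48 H2-Aa, 74 H2-Ab1, 104 H2-Eb1, 84 Cd74 and 2 Ciita UMIs, with H2-Aa in 2 of the 3 and Cd74 in all 3. The 13 recruited-type macrophage-like cells had 4335 CPM of H2-Aa and 9634 CPM of Cd74, and every one of them held a UMI of each classical chain. Ifng, the interferon known to induce Ciita in macrophages and microglia, had 186 UMIs in 15 of the 25 T or NK cell-like cells. Ifng was outside the naming rule and was picked once its values were known.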
